A study of Mus musculus with 8 samples.

Results

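In all, 10 receptor and adaptor genes known best from natural killer (NK) cells were examined in clonal expansions of CD8 memory T cells from old mice: the lectin-like receptor genes Klrd1, Klrc1, Klrc2, Klrk1, Klre1, Klrg1 and Klrb1c and the adaptor genes Hcst, Tyrobp and Fcer1g. They were taken by gene symbol from the annotation of the array. Of 12 probe sets that list a member, 10 carry a single gene and 2 list a further gene. Klrb1c appears only beside Klrb1b, so 9 of the 10 members have a probe set of their own, among 18194 such genes on the array. The probe sets of 8 members were bright enough to be tested (mean signal above about 45.3), and Klrc2 was not.

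An age-associated expansion is the progeny of a single CD8 T cell that has grown to a large share of the memory compartment. From each of 4 female mice, spleen and lymph nodes gave an expansion and polyclonal CD8 memory cells, which were sorted and hybridised to an Affymetrix mouse expression array each. All cells were sorted as CD8+ CD122+ MHC II-, so these properties are shared by both groups. Mouse 1 was C57BL/10SnJ, 20 months old, and its expansion is labelled alpha4-high, for integrin alpha4. The other expansions are labelled alpha4-low. They came from mouse 2 (C57BL/10SnJ, 20 months), mouse 3 (C57BL/10SnJ, 23 months) and mouse 4 (B10.BR, 23 months). For expansions 3 and 4 the subclass description carries another replicate number than the sample title. The subclass was taken from the description attached to each sample. Expansions were sorted as positive for 1 T cell receptor Vb chain per mouse, and polyclonal cells as negative for it. Each expansion is 1 clone of 1 mouse, and the alpha4-high subclass is represented by 1 of them. The array of expansion 4 was recorded by the scanner in another way than the other 7, which cannot be told apart from the sample itself.

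The receptors read the state of other cells. CD94, the product of Klrd1, pairs with NKG2A (Klrc1), which carries inhibitory motifs, or with the activating NKG2C (Klrc2), and these pairs bind Qa-1 loaded with leader peptides of MHC class I. NKG2D (Klrk1) is an activating receptor for stress-induced ligands and signals through the adaptors DAP10 (Hcst) and DAP12 (Tyrobp). NKG2I, encoded by Klre1, is a further lectin-like receptor of the same gene complex. KLRG1 is an inhibitory receptor for cadherins and a marker of effector CD8 T cells after repeated stimulation. NK1.1 (Klrb1c) marks NK cells in B6 and B10 mice. DAP12 and the Fc receptor gamma chain (Fcer1g) carry activating motifs and serve many receptors, also in myeloid cells. In mouse CD8 T cells, CD94, NKG2A and NKG2D are known to appear after activation and on memory cells.

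In the RefSeq gene table (GRCm38.p6) Klre1, Klrd1 and Klrk1 are successive coding genes on chromosome 6, Klrc2 and Klrc1 adjoin each other there, and Tyrobp and Hcst are direct neighbours on chromosome 7. A RefSeq promoter (250 bases before to 50 after the start) was given for 7 of the 10 members. The promoters of Klre1, Klrk1 and Klrc1 are printed because these NKG2-type genes had lower signals in every alpha4-low expansion than in its partner, and that of Hcst because it did not. Capitals mark TGTGGT or its reverse complement ACCACA, the core letters of RUNX factor motifs. The motif was picked after the sequences had been read.
Klre1, chr6:129577963-129578262, plus strand, the upstream of its listed starts: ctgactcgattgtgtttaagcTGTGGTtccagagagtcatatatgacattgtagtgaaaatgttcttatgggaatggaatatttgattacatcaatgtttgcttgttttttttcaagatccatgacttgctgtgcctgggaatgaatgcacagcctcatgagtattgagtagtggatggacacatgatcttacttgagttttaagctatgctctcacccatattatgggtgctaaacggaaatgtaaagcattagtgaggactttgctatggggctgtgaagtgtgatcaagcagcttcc
Klrk1, chr6:129623815-129624114, minus strand: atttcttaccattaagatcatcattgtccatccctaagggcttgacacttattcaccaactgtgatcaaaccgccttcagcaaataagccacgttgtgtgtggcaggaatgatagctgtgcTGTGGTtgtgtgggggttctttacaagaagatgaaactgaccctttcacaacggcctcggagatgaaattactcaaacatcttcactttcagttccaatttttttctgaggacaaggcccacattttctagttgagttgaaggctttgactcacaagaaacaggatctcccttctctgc
Klrc1, chr6:129678924-129679223, minus strand: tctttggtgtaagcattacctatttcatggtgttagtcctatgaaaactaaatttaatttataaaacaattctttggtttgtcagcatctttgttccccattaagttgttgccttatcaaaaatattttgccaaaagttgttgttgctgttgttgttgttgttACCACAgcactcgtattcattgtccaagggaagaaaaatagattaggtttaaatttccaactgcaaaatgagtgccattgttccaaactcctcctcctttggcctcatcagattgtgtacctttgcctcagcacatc
Hcst, chr7:30419805-30420104, minus strand: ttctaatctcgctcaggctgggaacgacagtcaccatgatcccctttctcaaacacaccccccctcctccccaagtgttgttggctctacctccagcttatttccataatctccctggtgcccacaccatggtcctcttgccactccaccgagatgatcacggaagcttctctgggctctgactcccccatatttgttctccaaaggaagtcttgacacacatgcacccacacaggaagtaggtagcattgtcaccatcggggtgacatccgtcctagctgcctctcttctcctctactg
The capitals start at position -229 from the listed start in Klre1, at -129 in Klrk1 and at -87 in Klrc1. Letters of the RUNX core were found in the promoters of 6 of the 7 members (Klre1, Klrk1, Klrc1, Klrc2, Klrb1c and Fcer1g). They are present for 18.9% of all genes listed and in 16.8% of all promoters of this length. The downstream start of Klre1 lacks them. Fcer1g carries them, although its signal was lower in only 1 of the 3 alpha4-low pairs. The T-box motif AGGTGTGA (reverse complement TCACACCT) was in 0 of the 7, against 1.48% of all genes. The E-box CAGGTG (reverse complement CACCTG) was in 1 of the 7, Klrc2, against 22.6% of all genes. The T-box and E-box motifs share the letters AGGTG. The Klr genes descend from common ancestors, and a match is a description of letters and not of a bound site.

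Signals were scaled by the authors to the same trimmed mean of 500 on each array. The background level of an array, the 95th percentile of its 27 probe sets for unspiked bacterial genes, lay between 33.7 and 61.9. The 9 CD8 T cell markers on the array, among them Cd8a, Cd3e and Il2rb (the gene of CD122), were above background on all 8 arrays. So was H2-Aa, a gene of MHC class II, whose protein the sort excluded. The class II genes H2-Eb1 and H2-Ab1 were dimmer and above background on 7 and 5 arrays. Sort purity was 91 to 98% for expansions, 97% for polyclonal samples 1 and 4, 75% for polyclonal sample 2 and 66% for polyclonal sample 3. In such bulk samples fewer cells of a type and less RNA per cell cannot be told apart. Differences below are on the log2(signal + 5) scale, which understates those of dim probe sets, and adjusted p-values are over 22518 probe sets.

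Klrg1 separated the alpha4-high expansion from the alpha4-low ones. Its signal was 3668 in expansion 1 and 192, 142 and 152 in expansions 2, 3 and 4. In the polyclonal samples of mice 1 to 4 it was 359, 679, 1421 and 1168. Expansion 1 thus lay above all polyclonal samples and the alpha4-low expansions below all of them, without overlap. Of all tested probe sets, 2.3% have the alpha4-low expansions below every polyclonal sample, and 0.737% have expansion 1 above all of them as well; Klrg1 was the only one of the 8 tested members in either class. The lowest polyclonal sample was the partner of expansion 1, whose own signal was 10.2-fold higher. In pairs 2, 3 and 4 the polyclonal signal was the higher, by 3.53-fold, 10.0-fold and 7.69-fold.

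**Figure D1:**
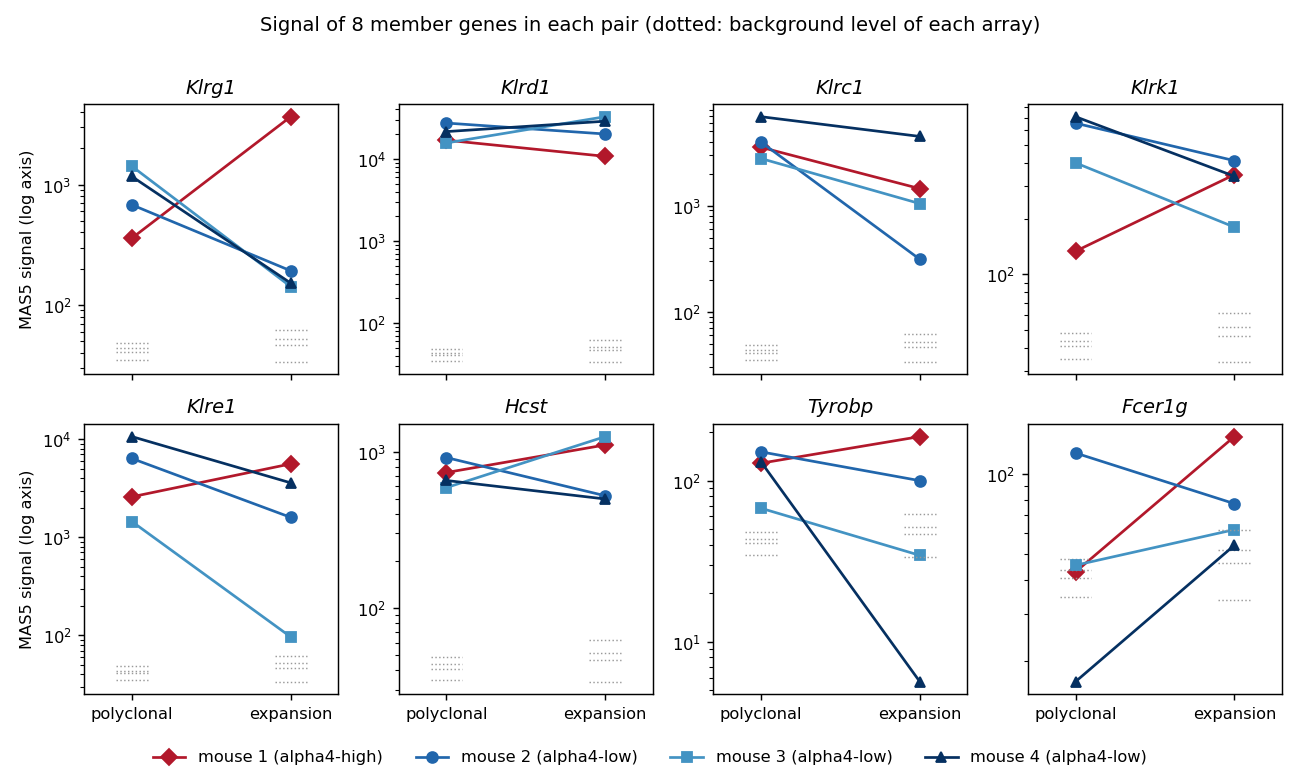
MAS5 signal (log axis) of the 8 tested member genes in polyclonal cells and in the expansion of each mouse, joined by a line per mouse; dotted lines are the background level of each array. The Klrg1 line of mouse 1 rises from 359 to 3668, while those of mice 2 to 4 end between 142 and 192.

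The difference between subclasses was tested directly, as the paired difference of the alpha4-low expansions minus that of the alpha4-high expansion. For Klrg1 it was -5.99 (SE 0.88, limma adjusted p = 0.0472), with a 95% interval from -7.90 to -4.09. It was the only call among the 8 tested members, where 0.0533% of all probe sets were called in this comparison (12 of 22518) and 0.0222% with a negative difference. At an unadjusted limma p under 0.05 were 3 of 8 members, Klrg1, Klre1 and Klrk1, all negative, as were 6.57% of all probe sets in either direction and 4.06% with a negative difference. The spread of the lone alpha4-high pair is assumed to be that of the others. The call was lost with a pseudocount of 1 (limma adjusted p = 0.0543), after quantile normalization (limma adjusted p = 0.0883) and without an intensity trend (limma adjusted p = 0.237). It held when pair 2, 3 or 4 was left out, with values from -6.43 to -5.68, and with sort purity as a covariate (-5.91, limma adjusted p = 0.0403). Each of these omissions leaves 1 residual degree of freedom, and in each the calls over all probe sets rose. Pair 1 could not be left out, since it alone carries the alpha4-high side.

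In the model of all 8 arrays, Klrg1 differed by -2.66 in the alpha4-low pairs (SE 0.44, limma adjusted p = 0.0615), which misses the threshold of 0.05. Its mean signal was 162 ± 26.6 in these expansions and 1089 ± 377 in their partners (SD, n = 3 each). Without pair 1, 2, 3 or 4 the call was made (limma adjusted p = 0.0459, 0.0472, 0.00162 and 0.0212), and so it was with a pseudocount of 50 (0.0480) or no filter on dim probe sets (0.0329). Without pair 1 only the alpha4-low pairs are fitted, with the same difference of -2.66. Leaving out pair 2, 3 or 4 leaves 1 residual degree of freedom, and without pair 3 or 4 the calls over all probe sets went from 12 to 133 or 148. The call was not made with sort purity as a covariate, where the difference stayed at -2.60 (limma adjusted p = 0.675). It was also not made without an intensity trend (limma adjusted p = 0.203) or after quantile normalization (limma adjusted p = 0.132). Without the mouse as a block the value was -2.28 (limma adjusted p = 0.689). Over all 4 pairs Klrg1 averaged -1.16 ± 3.06 (SD, n = 4), so the spread between pairs exceeded the mean (limma adjusted p = 0.9998). These comparisons share arrays and are not independent of each other.

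The 8 tested members are set beside all probe sets here as a description only. They were chosen with earlier results of these data known. In the alpha4-low comparison the differences of 6 of 8 tested members were below 0 (median -1.33), where the median of all probe sets was -0.07 and 55.5% were negative. Klrc1, Klrk1, Klre1, Klrg1 and Tyrobp, 5 of the 8, were lower in 3 of 3 pairs, as were 15.0% of all probe sets. The same 5 had an unadjusted limma p under 0.05, as 5.11% of all probe sets did (3.91% with a negative difference). After adjustment 0 of 8 passed, against 0.0533% of all probe sets in either direction and 0.0488% with a negative difference. In pair 1 most members went the other way. There 6 of 8 were higher in the expansion, with a median of 0.85 against 0.06 over all probe sets. Klrd1 and Klrc1 were lower in that pair, as were 46.2% of all probe sets. At least 2-fold higher there were Klrg1, Klre1, Klrk1 and Fcer1g, where 12.0% of all probe sets were, and at least 2-fold lower was Klrc1, where 9.52% were. Higher in pair 1 and lower in every alpha4-low pair were 4 of the 8 (Klrg1, Klre1, Klrk1 and Tyrobp), as were 8.96% of all probe sets.

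**Figure D2:**
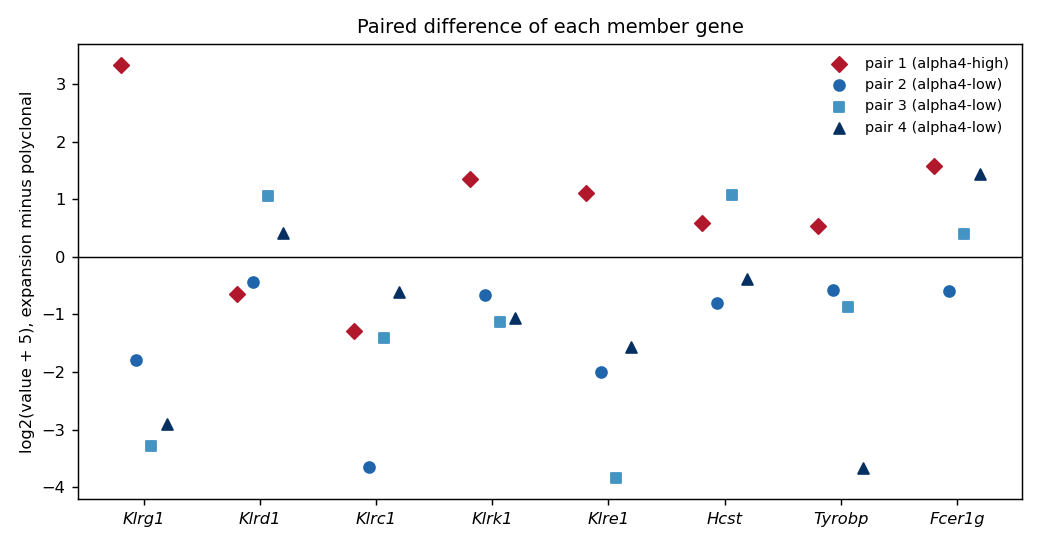
Paired difference, expansion minus polyclonal on the log2(signal + 5) scale, of the 8 tested members; each point is a mouse. Pair 1 stands apart upwards for Klrg1 (3.34), while Klrc1 is below 0 in all 4 pairs.

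Klrd1, which encodes the shared CD94 chain, was strongly expressed in every sample. Its signal was 10744, 20107, 32688 and 28801 in expansions 1 to 4 and 16904, 27340, 15648 and 21518 in their partners. The groups overlapped, with the lowest value in expansion 1 and the highest in expansion 3. The alpha4-low difference was 0.35 (SE 0.35, 95% interval -0.42 to 1.11, limma adjusted p = 0.989), and the 95% interval of the difference between subclasses ran from -0.53 to 2.53 (limma adjusted p = 0.978). Both intervals include 0.

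Klrc1, the gene of the inhibitory partner NKG2A, was dimmer in the expansion of every mouse. Expansions 1 to 4 read 1445, 312, 1045 and 4488, and their polyclonal partners 3548, 3972, 2780 and 6891. It was the only member lower in 4 of 4 pairs, a pattern of 6.05% of all probe sets. Mouse 4 had the highest signal in both kinds of cell, so its expansion lay above the partners of the other mice and the groups overlapped. The largest gap was in pair 2, where the polyclonal signal was 12.7-fold that of the expansion, against 1.54-fold in pair 4. Over all pairs the difference was -1.74 ± 1.32 (SD, n = 4; limma adjusted p = 0.9998), and 0 members passed there, as did 0.0% of all probe sets. At an unadjusted limma p under 0.05 were Klrc1 (0.00308) and Klre1 (0.0281), 2 of 8, against 3.25% of all probe sets.

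In the alpha4-low pairs the Klrc1 difference was -1.89 (SE 0.53, limma adjusted p = 0.678). It was called without pair 3 (-2.13, limma adjusted p = 0.00162) or pair 4 (-2.53, limma adjusted p = 0.0338). It was smaller and not called without pair 2 (-1.01, limma adjusted p = 0.970) and with sort purity as a covariate (-1.13). The difference between subclasses was -0.60 (95% interval -2.92 to 1.72, limma adjusted p = 0.9997), and its sign turned without pair 2 (0.28) and with sort purity as a covariate (0.43). A further Klrc1 probe set, between 2.02 and 34.5, was not above background on any array. The Klrc2 probe set was above background in polyclonal samples 1 (53.1) and 3 (45.8) and in no expansion, and it was not tested. A probe set listed for Klrc2 together with Klrc3 was not above background on any array. The activating partner of CD94 was therefore at the limit of detection, and no fold is given for it.

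Klre1 had the widest range among the NKG2-type receptors. Its signal was 5609 in expansion 1 and 1597, 96.4 and 3592 in expansions 2 to 4, against 2589, 6368, 1449 and 10649 in the partners of mice 1 to 4. Expansion 3 was the lowest of all samples and polyclonal sample 4 the highest, and the 2 kinds of sample overlapped between mice. Within mice, expansion 1 was 2.17-fold higher than its partner, and the partners of expansions 2, 3 and 4 were 3.99-fold, 15.0-fold and 2.96-fold higher than these. The alpha4-low difference was -2.47 (SE 0.48, limma adjusted p = 0.121), and it was called without pair 3 (-1.78, limma adjusted p = 0.0117) or pair 4 (-2.92, limma adjusted p = 0.00487). For the difference between subclasses the value was -3.58 (SE 0.96, limma adjusted p = 0.316), called without pair 3 (-2.89, limma adjusted p = 0.0141). With sort purity as a covariate both were smaller and not called, at -1.26 for the alpha4-low pairs and -1.94 between subclasses (limma adjusted p = 0.9998 for the latter).

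Klrk1, the gene of NKG2D, differed by a similar amount in each alpha4-low pair. It read 346, 411, 180 and 339 in expansions 1 to 4 and 133, 656, 400.4 and 711 in their partners. Polyclonal sample 1 was the lowest of the 8 and polyclonal samples 2 and 4 the highest, and alpha4-low expansions and their partners overlapped by a narrow margin. The paired differences were -0.67, -1.13 and -1.06 in pairs 2 to 4 and 1.34 in pair 1. Their mean in the alpha4-low pairs was -0.95 ± 0.25 (SD, n = 3; limma adjusted p = 0.958), and the difference between subclasses was -2.29 (SE 0.81, limma adjusted p = 0.549). Neither passed over all probe sets. Without the mouse as a block the values were smaller, at -0.44 in the alpha4-low pairs and -0.23 between subclasses.

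**Figure D3:**
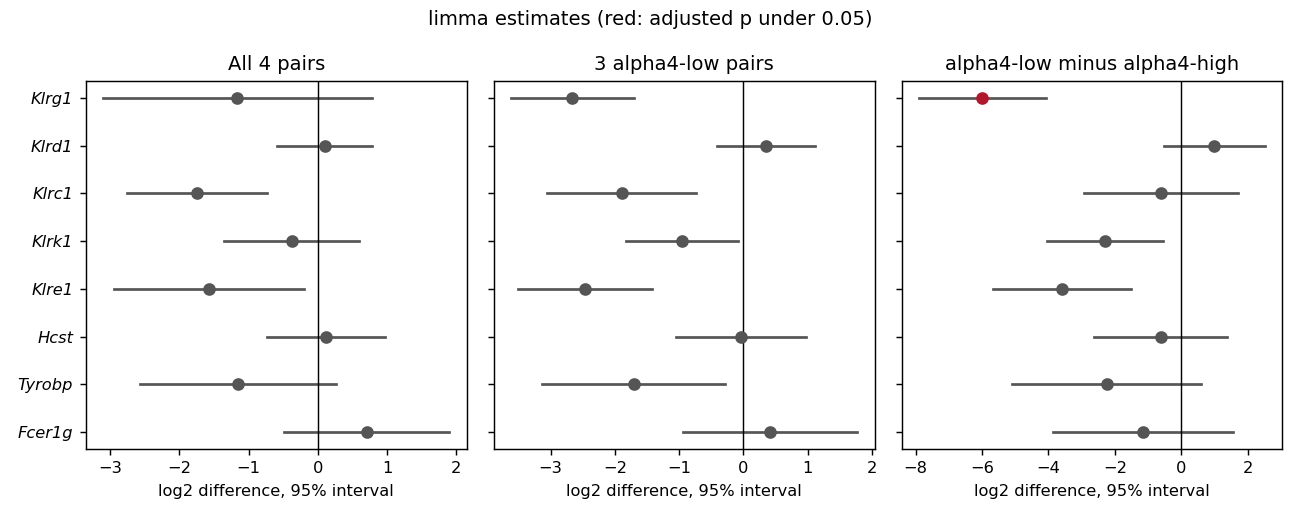
limma estimates with 95% intervals for the 8 tested members in the 3 comparisons, as log2 differences; red marks an adjusted p under 0.05. The only red point is Klrg1 at -5.99 in the difference between subclasses, and the intervals of Klrd1 and Hcst include 0 in every comparison.

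The adaptors differed from each other. Hcst, which encodes the DAP10 partner of NKG2D, read 1104, 522, 1248 and 498 in expansions 1 to 4 and 735, 916, 589 and 654 in their partners. The polyclonal samples lay within the range of the expansions, and 2 of 4 pairs went each way. Its alpha4-low difference was -0.04 (95% interval -1.05 to 0.97, limma adjusted p = 0.999), with a sign that depended on scaling (0.13 after quantile normalization and 0.12 after median centring). Its neighbour Tyrobp, which encodes DAP12, was dim, at 188, 100.03, 34.4 and 5.66 in expansions and 128, 151, 67.5 and 131 in polyclonal samples. Expansions 3 and 4 were under background, whereas all polyclonal samples were above it. The alpha4-low difference of -1.71 (SE 0.66, limma adjusted p = 0.932) therefore has no exact size. It was -0.72 without pair 4, -0.87 with a pseudocount of 50 and -3.49 with sort purity as a covariate.

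Fcer1g, the gene of the Fc receptor gamma chain, was dim. It read 138, 77.4, 61.9 and 54.1 in expansions 1 to 4 and 43.0, 119.8, 45.5 and 16.7 in their partners, above background in 3 expansions and 2 polyclonal samples. Expansion 1 was the brightest sample and polyclonal sample 4 the dimmest, and the groups overlapped. The alpha4-low difference was 0.42 (95% interval -0.94 to 1.77, limma adjusted p = 0.993) and turned to -0.10 without pair 4, with no exact size because some samples were under background.

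The probe set listed for both Klrb1b, an inhibitory receptor gene, and Klrb1c, the NK1.1 gene, cannot be given to either. It read 80.6, 63.8, 26.3 and 49.99 in expansions 1 to 4 and 74.7, 299, 86.1 and 441 in their partners. All alpha4-low expansions lay below all polyclonal samples, and expansion 3 was under background, so the differences have no exact size. The alpha4-low difference was -2.24 (SE 0.51, limma adjusted p = 0.333), against 0.10 in pair 1, and the difference between subclasses was -2.34 (limma adjusted p = 0.704).

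Polyclonal samples also differed among themselves. For Klre1, Klrk1, Klrc1 and the Klrb1b and Klrb1c probe set, polyclonal sample 4 was the highest and sample 2 the next, ahead of samples 1 and 3. For Klrg1 the order was samples 3, 4, 2 and 1. The summed signal of NK cell markers had the same samples at the top, 4 and then 2. Of 9 markers listed, 5 were on the array, and the sum was 15855 and 22457 in polyclonal samples 2 and 4, 683 and 786 in polyclonal samples 1 and 3, and 219.6 to 2267 in expansions. Most of it came from Klra8, a Ly49 receptor gene (15079 and 21818 in polyclonal samples 2 and 4). The other markers did not share that order. Styk1 read 660 in polyclonal sample 2 and 581 in sample 4, and its highest signal was in expansion 2 (1890). Itga2 read 62.5, 74.6, 3.60 and 21.1 in polyclonal samples 1 to 4. Ncr1, the defining NK cell receptor NKp46, was not above background on any array. Between 1 and 3 of the 5 markers were above background per array. In pair 3, where the sum was 309.5 and 786, the differences of Klrg1 (-3.28) and Klre1 (-3.84) were the largest of the alpha4-low pairs, and those of Klrc1 (-1.41) and Klrk1 (-1.13) were also below 0. The part of NK cells in these results was not tested in any pair.

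Myeloid markers, which bear on Tyrobp and Fcer1g, had a summed signal of 8448 to 27976 in expansions and 6873 to 21156 in polyclonal samples, with 11 to 14 of 17 above background. Their sum was higher in the expansion in pairs 1, 2 and 4, but single markers went both ways in pair 4. There Lyz1 read 8417 in the expansion and 11070 in its partner, against 6177 and 3795 for S100a8 and 5230 and 2539 for Ccr2. Tyrobp was higher in the expansion in pair 1 only, and Fcer1g in pairs 1, 3 and 4. In pair 4 the myeloid sums were 24165 and 21156 while Tyrobp read 5.66 and 131. The part of these cells in the adaptor values was not tested.

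**Figure D4:**
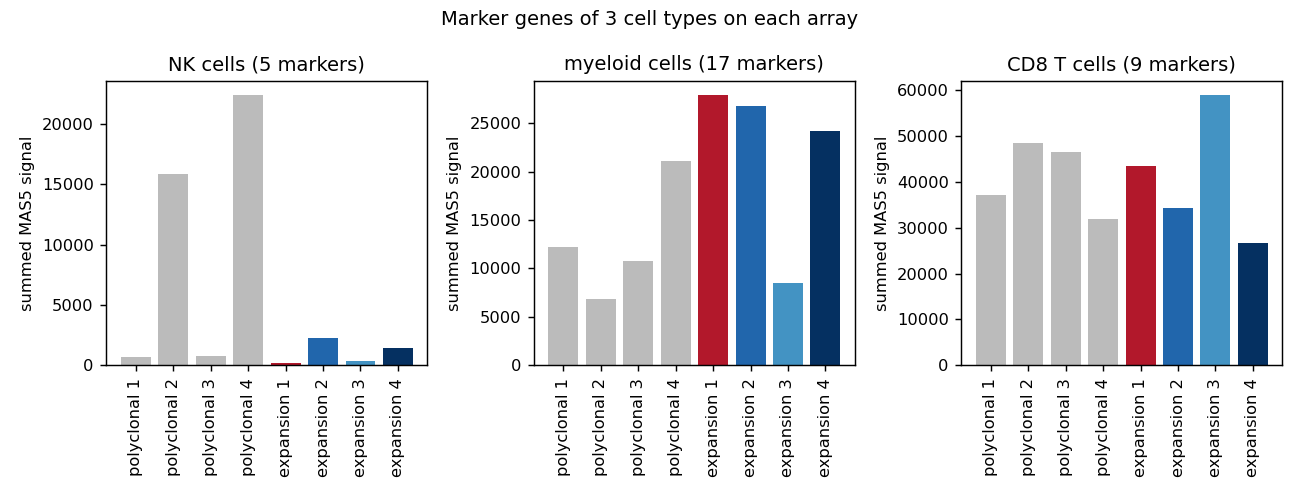
Summed MAS5 signal of marker genes of NK cells, myeloid cells and CD8 T cells on each array, polyclonal samples in grey and expansions in colour. The NK cell sum stands out in polyclonal samples 2 (15855) and 4 (22457), where most of it is the Klra8 signal (15079 and 21818).

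Downstream of the receptors, 18 of 23 listed signalling genes were tested, and 0 were called in any of the 3 comparisons. In the alpha4-low pairs 5 were higher and 13 lower, with a median of -0.17 (-0.03 over all genes). For this list and those below, 55.5% of all tested probe sets were lower in that comparison and 0.0533% were called. Named by size of the fitted difference were Sh2d1a (-1.38), Vav2 (1.33) and Cd247 (-0.82). The Vav2 value is not exact, since polyclonal sample 2 was under background (11.0), and it rests on pair 2 (2.96, against 0.49 and 0.55 in pairs 3 and 4). Sh2d1a encodes SAP, the adaptor of SLAM family receptors, and read 13531 in expansion 1 and 1569, 1242 and 2116 in expansions 2 to 4, against 3075, 4433, 6311 and 2630 in the partners. Expansion 1 lay above all polyclonal samples and the alpha4-low expansions below them, but the difference between subclasses of -3.52 did not pass (limma adjusted p = 0.258). Zap70, the kinase that binds phosphorylated activating motifs in T cells, was above background in all samples at 684 to 2690, with an alpha4-low difference of 0.32 (limma adjusted p = 0.993).

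Of 20 gene symbols listed for other adaptor-using, SLAM family or Ig-type NK receptors 10 were tested, among them Fcgr3, also a myeloid marker here. In the alpha4-low pairs 4 were higher and 6 lower, with a median of -0.15 (-0.03 over all genes) and 0 called. Slamf6, a SLAM family receptor, read 4054 in expansion 1 and 62.4, 237 and 363 in expansions 2 to 4, against 891, 376, 1038 and 417 in the partners. All alpha4-low expansions were below all polyclonal samples and expansion 1 above them, and the difference between subclasses was -3.78 (SE 0.98, limma adjusted p = 0.278). Cd244a (2B4) and Crtam had alpha4-low differences of -1.37 and -1.10 (limma adjusted p = 0.939 and 0.966), the former not exact because expansion 3 was under background. Among 12 other lectin-like genes of the NK gene complex 3 were tested, with 0 called: Cd69, an early activation marker (0.85), Klrb1f (-0.51) and Clec2d (-0.24). Of 18 ligand genes 5 were tested with 0 called. Largest were H60c (0.67), a ligand gene of NKG2D, Cdh1 (-0.64), the gene of the KLRG1 ligand E-cadherin, and H2-D1 (-0.61). The H60c value is not exact because expansion 3 was under background. Cdh1 rests on pair 3 (-2.15, against -0.21 and 0.45 in pairs 2 and 4). H2-D1 was lowest in pair 2 (-1.47, against -0.42 and 0.05 in pairs 3 and 4). In mouse 4, the B10.BR mouse, H2-D1 read 152 and 147, against 1338 to 3714 in the other samples.

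Transcription factors known for NK receptor and effector programmes had 14 of 16 members tested. In the alpha4-low pairs 2 were higher and 12 lower, with a median of -0.27 (-0.03 over all genes) and 0 called. Of all tested probe sets 55.5% were lower and 0.0533% called. Id3, Klf2 and Nfil3 had fitted differences of -1.37, -0.95 and -0.67 (limma adjusted p = 0.966, 0.965 and 0.989). That of Id3 has no exact size, since expansions 2 (37.9) and 3 (18.5) were under background. Runx3, whose family reads the letters marked in the promoters above, read 4927, 2337, 3738 and 2630 in expansions 1 to 4 and 3909, 4762, 3048 and 3709 in the partners. The groups overlapped, and its alpha4-low difference was -0.41 (limma adjusted p = 0.989).

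The genes most like Klrg1 over the 8 arrays, by Pearson r of log2 values among 10406 other genes, were Tmem255a (0.947), Casp4 (0.942), Art3 (0.940), Osbpl3 (0.939) and Tox2 (0.933). The 8 arrays hold 4 pairs from the same mice, and the r values describe these arrays only. Casp4, an inflammatory caspase gene, read 2908 in expansion 1, 129.96, 112 and 83.7 in expansions 2 to 4 and 492 to 1954 in polyclonal samples. Tox2, a transcription factor gene, read 2118 in expansion 1, 182, 148 and 113 in expansions 2 to 4 and 339.8, 613, 2840 and 552 in the partners. For both genes the alpha4-low expansions lay below all polyclonal samples. Expansion 1 exceeded all of them for Casp4, whereas for Tox2 polyclonal sample 3 was higher still. Both genes were picked for likeness to Klrg1 on these same arrays, so an order shared with Klrg1 is no separate support.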

How the data were processed

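RNA of the sorted cells went through 2 rounds of amplification before biotin labelling, per the labels' protocols. The deposited table holds linear intensity values computed by the authors in MAS5, as the submitters' processing notes name it, with no version given. Detection calls were not used here. Scaling to a common trimmed mean hides changes in total RNA, and double amplification favours 3' ends.

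From these intensities log2(value + 5) was computed. The 64 control probe sets and those with a mean not above the median were left out. Models were fitted to the remaining 22518 with limma 3.58.1 in R 4.3.3 (eBayes with an intensity trend, two-sided, Benjamini-Hochberg adjustment, threshold 0.05). Mouse was a fixed block, since the design text pairs the samples of each animal. Deviations of the partners correlated at 0.374, 0.0771, 0.214 and 0.338. The first model had a coefficient for all expansions (3 residual degrees of freedom), the other separate coefficients for the subclasses (2). With 1 array per sample, precision is limited by the number of arrays.

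The brightest probe set by mean log2 value stood for a gene. Named were all members, up to 3 genes per list with the largest alpha4-low difference, and the 5 genes most like Klrg1. Zap70 and Runx3 were added with their values known, as were the genes in the closing section. Members and lists were chosen with earlier results of these data known. The tests were run on simulated data with 22518 probe sets, 200 of them changed by the same amount in each alpha4-low expansion. The difference between subclasses recovered 34.8% of those changed by 4 log2 units and 1.5% of those changed by 2. The alpha4-low comparison recovered 100% and 68.7%. False calls numbered 1 in the difference between subclasses and 13 in the alpha4-low comparison.

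Alternatives changed the scaling, the pseudocount, the filter on dim probe sets, the intensity trend, the mouse block, sort purity as a covariate and the omission of each pair. Gene names are those of the platform annotation. Promoters are from RefSeq.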

Additional observations from a re-analysis of the deposited data

Results flagged for a closer look

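The signal of Klrg1 in expansion 1 (3668) stood far from the other expansions (142 to 192). Its gap to the nearest of them on the log2 scale was 0.909 of the whole range of the 4 expansions, above the 95% critical value of Dixon's test for 4 samples. Of 24 groups of 4 values examined over the 8 tested members this was the only such case. Chance gives about 1 in 20, so 1 case in 24 groups is near the chance number. The 4 expansions hold both subclasses. The paired difference of Klrg1 also differed between the subclasses, at -5.99 (limma adjusted p = 0.0472). Both statements rest on the same array of expansion 1.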

How the results depend on the processing

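Over the probe sets as a whole the calls moved with the settings. For the alpha4-low pairs 12 were called, against 6 after quantile normalization, 29 after median centring, and 0 without an intensity trend or with no replicate block (1097 and 621 at an unadjusted limma p under 0.05). For the difference between subclasses 12 were called, against 0 with a pseudocount of 1, after quantile normalization or without a trend (1541, 1552 and 1572 unadjusted in limma), 25 and 51 with pseudocounts of 16 and 50, 25 with no filter, 19 with a filter on background, 56 after median centring and 143 with no replicate block. With 1 pair left out the counts ranged from 0 to 20 for all pairs, 18 to 148 for the alpha4-low pairs and 64 to 266 for the difference; the last could not be fitted without pair 1.

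Among the 8 members 0, 0 and 1 were called in the 3 comparisons. In the alpha4-low pairs 1 was called with a pseudocount of 50 or no filter. In the difference 0 were called with a pseudocount of 1, after quantile normalization or without a trend. With 1 pair left out the ranges were 0 to 1, 1 to 3 and 1 to 2. With no replicate block the member counts stayed at 0, 0 and 1. Signs turned only for uncalled values. Over all pairs these were Klrd1 (-0.14 after quantile normalization) and, with sort purity as a covariate, Klrd1 (-0.22), Klrk1 (0.15) and Klrg1 (0.26). In the alpha4-low pairs Hcst turned (0.13 after quantile normalization, 0.12 after median centring), and in the difference Klrc1 (0.43 with sort purity). With 1 pair left out Klrd1 ranged from -0.23 to 0.35 over all pairs and from -0.011 to 0.74 in the alpha4-low pairs, Hcst from -0.20 to 0.42 and from -0.60 to 0.34, Fcer1g from -0.10 to 0.92 in the alpha4-low pairs and Klrc1 from -1.24 to 0.28 in the difference. The cause was not tested. The median difference between subclasses over all probe sets was -0.0953, against 0.05 after quantile normalization and 0.1832 after median centring. Signals near background limit Tyrobp, Fcer1g and Klrc2.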

Other observations

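Some genes of the listed pathways were at their lowest in the alpha4-high expansion, the opposite of Klrg1; they were named after their values were seen. Vav3, a guanine nucleotide exchange factor gene of antigen receptor and NK receptor signalling, read 12.8 in expansion 1, under background, and 609 in its partner. In expansions 2 to 4 it read 1398, 449 and 493, against 660, 453 and 1128 in their partners. Its difference between subclasses was 5.07 (SE 0.96, limma adjusted p = 0.0839), a size that is not exact. Cd226, the gene of the activating receptor DNAM-1, read 32.3 in expansion 1, under background, and 274 in its partner, against 145 to 250.3 in the alpha4-low expansions and 158 to 246 in their partners (difference between subclasses 2.79, again not exact, limma adjusted p = 0.416).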
